A study of Mus musculus with 6 samples.

Results

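The 32 genes described here make heme, carry iron into the cell and its mitochondria, store or release it, break heme down, or build iron-sulfur clusters. They were chosen by symbol from these functions, and all 32 were found among the 24815 gene identifiers of the deposited tables. Heme is built from glycine and succinyl-CoA by a chain of enzymes that starts in the mitochondrion, continues in the cytosol and ends in the mitochondrion, where iron is inserted. The iron reaches developing red cells bound to transferrin: the receptor TFRC brings it into endosomes, STEAP3 reduces it and SLC11A2 moves it to the cytosol. Iron regulatory proteins, the products of Aco1 and Ireb2, bind hairpins in the messages of several of these genes and set their translation or stability.

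RNA was sequenced from common myeloid progenitors, cells that can still enter the erythroid-megakaryocytic or the granulocyte-monocyte branch, sorted from fetal liver of C57BL/6 mice at embryonic stage E13.5. The wild-type group (WT) has 3 libraries, named A, F and L. The mutant group has 3 libraries, named C, D and Q, from animals homozygous for loss of the Gata2 -77 enhancer (-77-/-), an element that controls the gene for the transcription factor GATA2. In both genotypes the gate took CD34+, c-kit+, FcRlow, Sca-1- cells that also lacked TER-119, CD41, CD48, Gr-1 and markers of B and T cells, so cells with surface TER-119, a late red cell marker, were removed from both. The deletion is not restricted to a cell type by the labels, and the labels do not say whether a library came from 1 embryo or a pool. The p-values therefore measure the spread between these libraries, which may be technical.

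The libraries held 14473913 to 30596279 expected counts, the reads that the counting program assigned to genes. Gata2 stood at 78.6, 57.4 and 63.9 CPM (reads scaled to a fixed library total) in wild types A, F and L and at 8.92, 16.5 and 17.8 CPM in mutants C, D and Q. Transcripts of the positive gate markers Cd34 and Kit were present in all 6 libraries, with Kit at 102 CPM in mutant C and 270 to 337 CPM elsewhere. Of the T cell markers, Cd3e had no count in any library and Cd8a stood at 0 to 0.239 CPM. Cd5 stood at 0.414 to 1.54 CPM and Cd4 at 2.75 to 6.31 CPM. Cd48 transcript, whose protein was gated against, stood at 446 CPM in mutant C and 90.1 to 150 CPM elsewhere. In TPM, which corrects for gene length, Cd48 stood at 169 to 251, again highest in mutant C. Mutant C stood apart. Its log2 CPM correlated at 0.880 to 0.923 with the other libraries, which correlated at 0.974 to 0.989 among themselves, and its count-weighted gene length was 1781 bases against 2834 to 3124. The main results are therefore given with all 6 libraries and without mutant C, and the reading is named at each value.

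Iron-responsive elements are shown first because they join the regulators among these genes to their targets. The element is a hairpin with a loop of 6 bases beginning CAGTG and an unpaired C before the upper stem. Untranslated regions of the GENCODE M21 transcripts were searched in the sense direction for such a loop not ending in G, with a C before the upper stem and all 5 bases of each stem arm able to pair (G with T allowed). Of the 32 genes, 4 held a match in the 5′ untranslated region (Alas2, Fth1, Ftl1 and Slc40a1) and 1 in the 3′ untranslated region (Tfrc, with 4 matches). Over all coding genes the pattern was found in 23 of 21200 with a 5′ and 110 of 21846 with a 3′ untranslated region, 0.108% and 0.504%. In the windows below, 30 bases each on mm10, capitals mark the loop.
Alas2, 5′ untranslated region: ttggttcgtcctCAGTGCagggcaacagga
Fth1, 5′ untranslated region: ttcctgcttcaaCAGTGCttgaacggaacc
Ftl1, 5′ untranslated region: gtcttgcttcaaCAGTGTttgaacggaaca
Tfrc, 3′ untranslated region, site 1: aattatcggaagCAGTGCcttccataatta
Tfrc, 3′ untranslated region, site 2: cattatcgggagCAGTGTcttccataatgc
Tfrc, 3′ untranslated region, site 3: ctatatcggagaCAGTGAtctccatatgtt
Tfrc, 3′ untranslated region, site 4: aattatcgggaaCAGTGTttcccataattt

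The Fth1 window lies at chr19:9982732-9982761 on the plus strand and the Ftl1 window at chr7:45459778-45459807 on the minus strand. The Alas2 window is on the plus strand of chromosome X, with its first base at 150547458 and its last at 150552150, because a splice junction divides it. The Tfrc sites run from chr16:32631219-32631248 to chr16:32631710-32631739 on the plus strand. As background, a hairpin in the 5′ region lets the regulatory proteins block translation when iron is low, and hairpins in the 3′ region of Tfrc let them protect the message from decay. RNA abundance reads the second effect but not the first. No match in a window, as for Slc11a2, says only that these letters were not found there.

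For all 3 iron uptake genes, Steap3, Tfrc and Slc11a2, every mutant library lay below every wild-type library, as for 11.4% of all genes tested with 6 libraries and 14.6% without mutant C. Mutant C was the lowest library for each of the 3. In sorted bulk samples, fewer cells of a type and less RNA per cell cannot be told apart. With all libraries edgeR's quasi-likelihood test, with Benjamini-Hochberg adjustment over 12222 genes, called 0 of the 32 at 0.05, against 0.155% of all genes tested (0.147% lower in the mutant). An unadjusted p under 0.05 was reached by 4 of the 32 (4.8% of all genes). These were the 3 uptake genes, which were lower (3.09% of all genes), and Hmox1, which was higher (1.71%). DESeq2 and limma-voom also called 0 of the 32, against 0.673% and 0.262% of the genes they tested.

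Steap3, the endosomal iron reductase (chromosome 1, 120190757 to 120272705), stood at 38.6, 34.4 and 35.7 CPM in wild types A, F and L. It stood at 25.5 and 25.7 CPM in mutants D and Q and at 18.6 CPM in mutant C. The wild-type libraries lay close together, and the highest mutant value was well under the lowest wild-type value. With all libraries the log2 change was -0.64 with a standard error of 0.18 (edgeR adjusted p = 0.578). Without mutant C, Steap3 fell 1.42-fold (log2 change -0.51, standard error 0.08, edgeR adjusted p = 0.0383), the only one of the 32 genes called, against 0.84% of 12614 genes tested (0.761% lower). The call on 5 libraries ended with limma-voom (adjusted p = 0.057) and with limma on log2(TPM + 1) (adjusted p = 0.255) or log2(TPM + 0.1) (adjusted p = 0.221).

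Tfrc, which encodes transferrin receptor 1 (chromosome 16, 32608920 to 32632794), stood at 154, 129 and 119 CPM in wild types A, F and L. It stood at 101 and 99.97 CPM in mutants D and Q and at 65.4 CPM in mutant C. Wild type A was the highest and the mutants did not reach the wild-type range. The log2 change was -0.59 with a standard error of 0.23 over 6 libraries (edgeR adjusted p = 0.578), and -0.42 with a standard error of 0.12 without mutant C (edgeR adjusted p = 0.267). On 5 libraries DESeq2 called it (adjusted p = 0.0496), as it did Steap3 and Blvrb of the 32, against 1.33% of the genes it tested.

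Slc11a2, the iron transporter DMT1 of endosomes (chromosome 15, 100387898 to 100425072), stood at 28.3, 23.1 and 23.97 CPM in wild type. In mutants C, D and Q it stood at 15.7, 19.3 and 18.5 CPM. The log2 change was -0.49 with a standard error of 0.16 over 6 libraries and -0.42 with a standard error of 0.11 without mutant C (edgeR adjusted p = 0.578 and 0.222). All 3 steps of the transferrin route thus had values of similar size in mutants D and Q, 1.34-fold to 1.42-fold lower by the fit, and 1 of them passed the test.

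**Figure D1:**
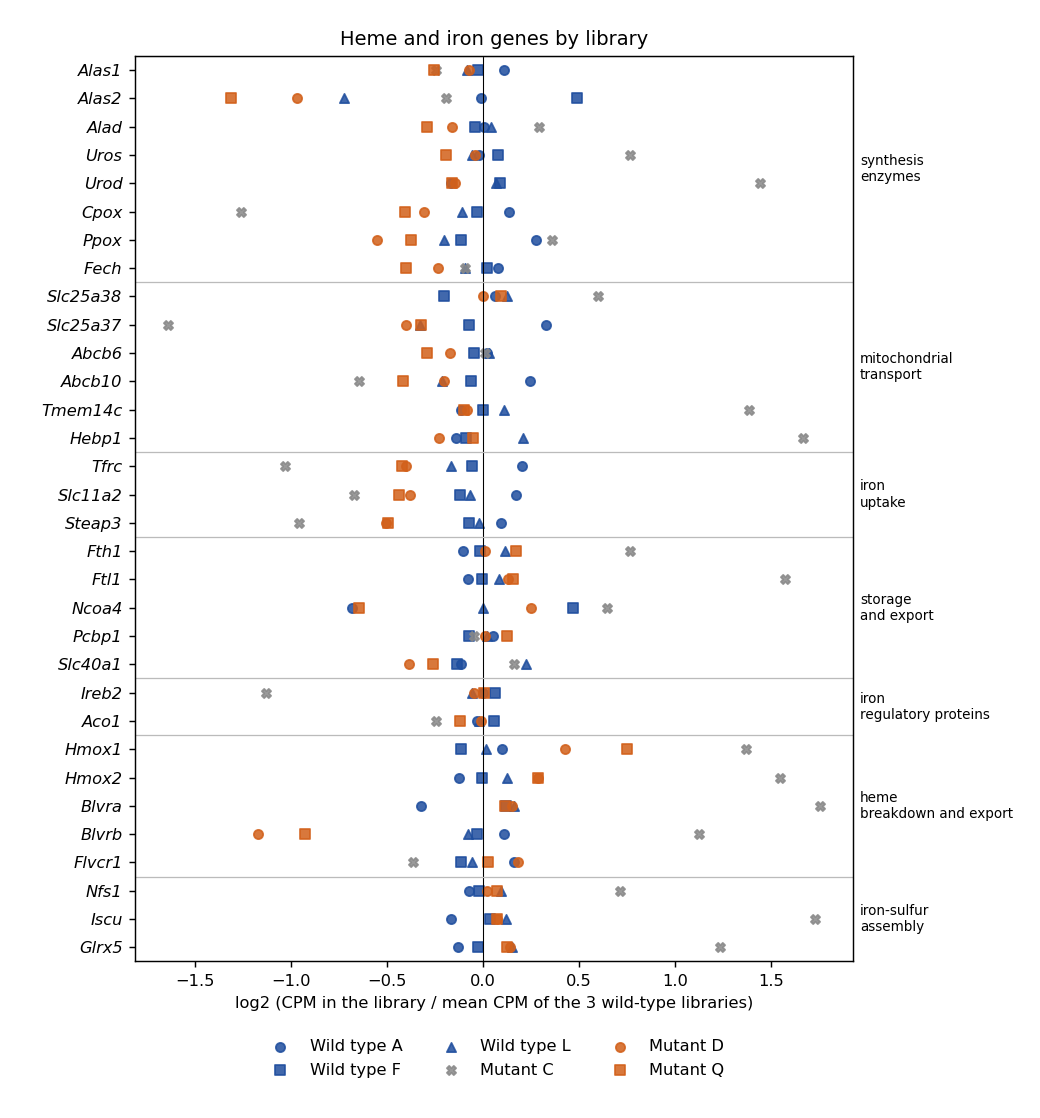
Each point is a library's CPM for a gene relative to the mean of the 3 wild-type libraries, on a log2 scale (x axis), with genes grouped by role (y axis). The 3 iron uptake genes are the rows in which all mutant libraries, mutant C included, lie left of all wild-type libraries, as does Cpox among the synthesis enzymes.

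None of the 8 synthesis enzymes was called, and their fitted values lay on the lower side without mutant C. In that reading all 8 enzymes had a log2 change below 0, from -1.15 to -0.12 with a median of -0.28, and 51.7% of all genes tested were below 0. In 5 of the 8 (Alas2, Alad, Cpox, Ppox and Fech) both D and Q lay below every wild-type library (14.6% of all genes), and the same 5 had an unadjusted p under 0.05 (6.02% of all genes, lower). In Alas1, Uros and Urod the groups overlapped. None of the 8 passed over all genes by edgeR, DESeq2 or limma-voom in either reading. With all 6 libraries 6 of the 8 were below 0 (52.0% of all genes) and 1, Cpox, had groups that did not overlap (11.4%).

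Alas2, the erythroid form of the first enzyme of the pathway (chromosome X, 150547375 to 150570638), stood at 6.52, 9.21 and 3.97 CPM in wild types A, F and L. It stood at 3.35 and 2.63 CPM in mutants D and Q and at 5.73 CPM in mutant C, inside the wild-type range. Its spread within the wild type was wide for a gene with a mean of 97.4 counts per library. The log2 change was -0.78 with a standard error of 0.42 with all libraries, and -1.15 with a standard error of 0.35 without mutant C (edgeR adjusted p = 0.578 and 0.305). Alas1, the form used in most tissues (chromosome 9, 106233455 to 106248654), stood at 66.2, 60.5 and 58.0 CPM in wild type, against 51.9, 58.4 and 51.4 CPM in mutants C, D and Q. Its groups overlapped narrowly, through mutant D and wild type L.

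Per length, Alas1 was the main form in every library. In TPM, which corrects for gene length, Alas2 made up 9.99%, 14.5% and 7.12% of the summed Alas1 and Alas2 level in wild types A, F and L. It made up 11.6%, 6.18% and 5.43% in mutants C, D and Q. The log2 ratio of Alas2 to Alas1 differed by -0.52 between the genotypes (two-sided exact permutation test, p = 0.40, where 0.10 is the smallest p that 3 against 3 can give). Among 3 isozyme ratios tested, the adjusted p was 0.60 for each. Without mutant C the difference was -0.88, and the exact permutation p of 0.20 is the smallest possible with 3 against 2.

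The enzymes that follow include 3 cytosolic steps. Alad, which joins the first intermediates in the cytosol, stood at 22.7 to 23.97 CPM in wild type, against 20.9 and 19.1 CPM in mutants D and Q. Mutant C was the highest library for Alad at 28.5 CPM. Uros and Urod, the next cytosolic enzymes of the list, overlapped between the genotypes in both readings. Urod stood at 40.4, 48.3 and 47.5 CPM in wild type, 41.0 and 40.5 CPM in D and Q and 123 CPM in C, so that its fitted log2 change was 0.58 with mutant C and -0.16 without it.

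The last enzymes act in mitochondria. Cpox, coproporphyrinogen oxidase, stood at 54.6, 48.8 and 46.2 CPM in wild type, 40.3 and 37.6 CPM in mutants D and Q and 20.8 CPM in mutant C. Every mutant library was below every wild-type library (log2 change -0.60, standard error 0.27; -0.37, standard error 0.09, without mutant C; edgeR adjusted p = 0.578 and 0.195). Ppox, the enzyme after it, stood at 14.95, 11.4 and 10.7 CPM in wild type, against 8.41 and 9.52 CPM in D and Q, and mutant C was the highest library at 15.9 CPM. Fech, which inserts the iron, stood at 31.6, 30.4 and 28.1 CPM in wild type, against 28.1, 25.5 and 22.7 CPM in mutants C, D and Q. Mutant C thus lay at the lowest wild-type value of Fech, while D and Q lay below it.

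**Figure D2:**
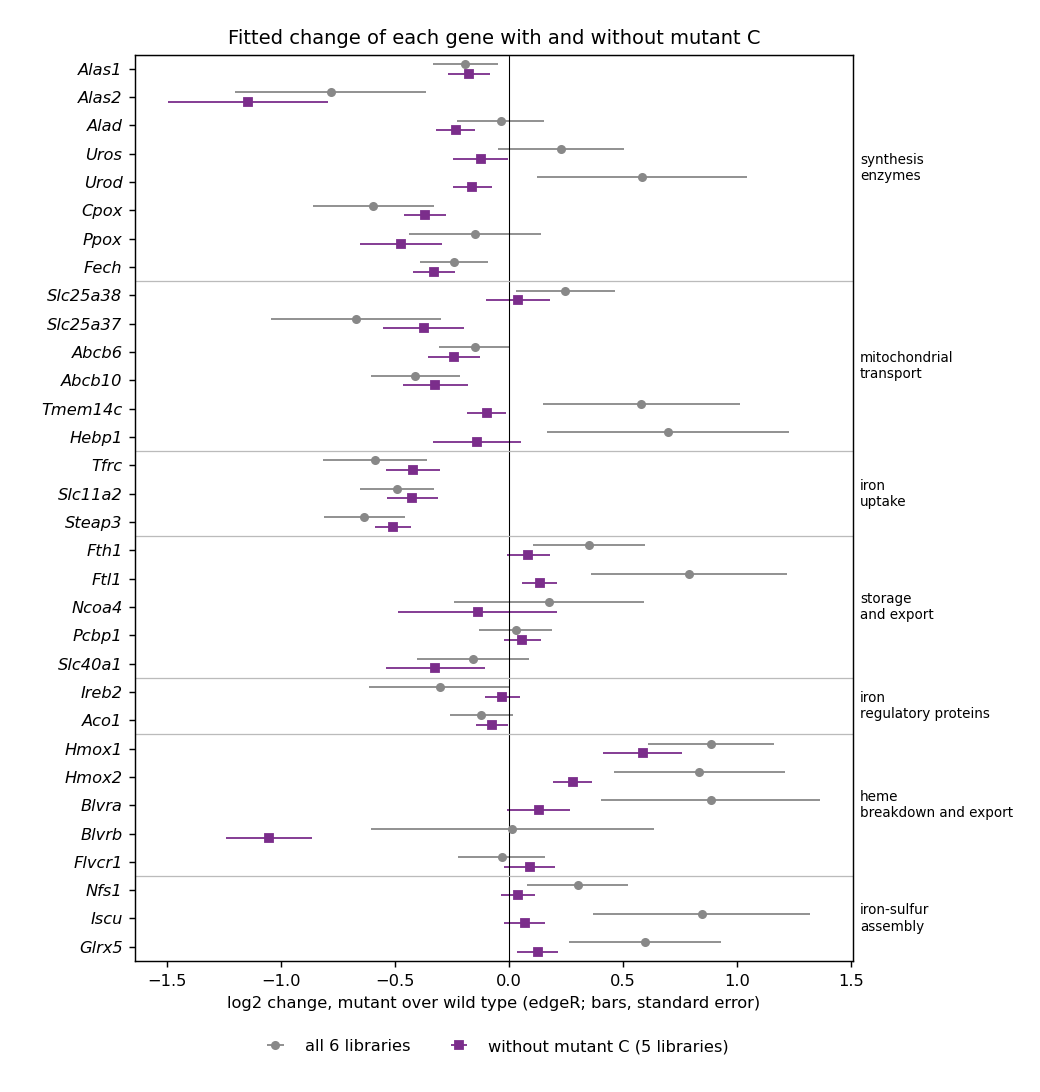
Fitted log2 change of each gene, mutant over wild type (x axis), with standard errors, from all 6 libraries (grey circles) and without mutant C (purple squares). Synthesis enzymes and iron uptake genes lie left of 0 without mutant C, and Uros, Urod, Tmem14c, Hebp1, Ncoa4, Blvrb and Flvcr1 change sides when mutant C is left out.

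None of the 6 genes of mitochondrial transport and heme binding was called in either reading. Slc25a37, which encodes the iron importer mitoferrin 1 of developing red cells, stood at 75.6, 57.2 and 47.9 CPM in wild type, against 45.6 and 48.1 CPM in mutants D and Q, so mutant Q overlapped wild type L. Mutant C was far lower at 19.3 CPM. Slc25a38, the mitochondrial glycine carrier that supplies the first enzyme, overlapped between the groups, at 9.90 to 12.4 CPM in wild type, against 11.4, 12.2 and 17.3 CPM in D, Q and C. Abcb6, a porphyrin transporter, was the 1 gene of the 6 in which D and Q both lay below wild type, at 11.6 and 10.7 CPM against 12.7 to 13.4 CPM. Abcb10, an inner membrane transporter that stabilises mitoferrin 1, had -0.41 ± 0.19 (log2 change and standard error) with all libraries and -0.32 ± 0.14 without mutant C. Tmem14c, a porphyrin carrier, and Hebp1, a heme-binding protein gene, lay inside or next to the wild-type range in D and Q and were highest in mutant C (305 and 15.3 CPM).

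Ferritin transcripts were abundant, and neither gene was called. Ftl1, the light chain, stood at 532, 561 and 595 CPM in wild type, 614 and 627 CPM in mutants D and Q and 1675 CPM in mutant C. In CPM every mutant library was above every wild-type library, with a log2 change of 0.79 over 6 libraries and 0.13 without mutant C (edgeR adjusted p = 0.578 and 0.594). In TPM the groups overlapped, at 1221, 1139 and 1185 in wild type and 1152, 1239 and 1130 in mutants C, D and Q. Fth1, the heavy chain that oxidises the iron, overlapped between the groups, at 324 to 377 CPM in wild type, against 350, 392 and 591 CPM in D, Q and C. The log2 ratio of Fth1 to Ftl1 differed by -0.30 between the genotypes with all libraries and by -0.05 without mutant C (two-sided exact permutation test, p = 0.30 and 0.60). Ferritin genes have processed copies elsewhere in the genome, so the splitting of reads between copies makes their levels uncertain.

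The other 3 genes of storage and export were not called. Ncoa4, the receptor that delivers ferritin for degradation, varied widely within the wild type, at 179, 397 and 287 CPM, and stood at 341 and 184 CPM in mutants D and Q. Pcbp1, an iron chaperone for ferritin, was even, at 302 to 328 CPM in wild type and 307 to 346 CPM in the mutant. Slc40a1, which encodes the exporter ferroportin, had the lowest wild-type CPM of the 32, and mutants D and Q lay below wild type, at 3.46, 3.40 and 4.38 CPM in wild type, against 4.18, 2.87 and 3.13 CPM in mutants C, D and Q. Of the genes with an element in the 5′ region, Alas2, Fth1, Ftl1 and Slc40a1 had log2 changes of -1.15, 0.08, 0.13 and -0.32 without mutant C, and -0.78, 0.35, 0.79 and -0.16 with it. Tfrc, with elements in the 3′ region, had -0.42 and -0.59. The regulators themselves lay inside the wild-type range or next to it in mutants D and Q: Ireb2 at 159 and 165 CPM against 158 to 171, and Aco1 at 43.4 and 40.1 CPM against 42.6 to 45.3.

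Among the heme breakdown genes, Hmox1 and Hmox2 had higher CPM in every mutant library, and Blvrb had lower CPM in mutants D and Q. Heme oxygenase opens the heme ring and releases iron, and biliverdin reductase acts on the product. Hmox1, the inducible oxygenase (chromosome 8, 75093621 to 75100589), stood at 5.33, 4.603 and 5.03 CPM in wild type, 6.69 and 8.37 CPM in mutants D and Q and 12.9 CPM in mutant C. Hmox2, the constitutive oxygenase (chromosome 16, 4726361 to 4766742), stood at 58.7, 63.7 and 69.8 CPM in wild type, 78.2 and 78.0 CPM in D and Q and 187 CPM in C. For both, every mutant library was above every wild-type library in CPM, as in 10.6% of all genes tested, and Ftl1 was the third such gene of the 32. In TPM, mutants D and Q were still above wild type, but mutant C was the lowest library for both, at 5.26 TPM for Hmox1 (5.55 to 7.25 in wild type) and 96.5 TPM for Hmox2 (101 to 106 in wild type). The log2 change of Hmox1 was 0.89 (standard error 0.28) with all libraries and 0.59 (standard error 0.17) without mutant C. That of Hmox2 was 0.83 (standard error 0.37) and 0.28 (standard error 0.09). Neither was called (edgeR adjusted p = 0.578 for both with all libraries, 0.289 and 0.303 without mutant C).

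Hmox2 was the main oxygenase transcript per length, and Hmox1 made up 5.14% to 6.67% of the summed TPM of both in wild type and 5.17%, 6.29% and 7.71% in mutants C, D and Q. The log2 ratio of Hmox1 to Hmox2 differed by 0.17 between the genotypes with all libraries and by 0.32 without mutant C (two-sided exact permutation test, p = 0.60 and 0.40). Mutant Q, with the highest share, also held the most hepatoblast RNA. The 14 hepatoblast markers summed to 586 TPM in mutant Q, 82.3 to 169 TPM in wild type, and 117 and 140 TPM in mutants C and D. The most abundant of these markers were Dlk1, Afp and Alb, and Alb stood at 182 TPM in mutant Q and 3.06 to 28.5 TPM elsewhere. Macrophages, which recycle heme, were read from 13 markers, of which 7 passed the count filter. The 13 summed to 95.3 to 125 TPM in wild type and 42.1, 124 and 92.8 TPM in mutants C, D and Q. The most abundant were Csf1r, Cd68 and Spic. Csf1r made up most of the sum in every library, so the sum was mainly a reading of Csf1r. In CPM Csf1r stood at 146 to 166 in wild type and at 149, 202 and 154 in mutants C, D and Q. The low sum of mutant C was thus not seen for Csf1r in CPM. The part of hepatoblasts or macrophages in the Hmox1 values and share was not tested.

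Blvrb, biliverdin reductase B, which is abundant in red cells (chromosome 7, 27447978 to 27466144), stood at 6.76, 6.12 and 5.92 CPM in wild types A, F and L. It stood at 2.77 and 3.29 CPM in mutants D and Q and at 13.7 CPM in mutant C. The wild-type libraries were tight, D and Q lay well below them, and mutant C lay above all others. The fitted log2 change was 0.01 with a standard error of 0.62 with all libraries. Without mutant C it was -1.05 with a standard error of 0.19, a 2.07-fold lower level that missed the threshold (edgeR adjusted p = 0.0680). DESeq2 called it on those 5 libraries (adjusted p = 0.00785), as did edgeR without a filter on low counts (adjusted p = 0.0184) and limma on log2(TPM + 1) (adjusted p = 0.0454). In that limma fit the shift of all genes on the TPM scale, -0.11, was not taken off before the test. Blvra, the other reductase, stood at 20.04, 27.2 and 28.1 CPM in wild type, against 27.9 and 27.1 CPM in D and Q, inside the wild-type range, and at 84.8 CPM in C. Flvcr1, the heme exporter, overlapped between the groups at 16.5 to 24.1 CPM in all 6 libraries.

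None of the 3 iron-sulfur assembly genes was called. Nfs1 supplies the sulfur, Iscu is the scaffold on which the cluster forms, and Glrx5 passes clusters on. Their log2 changes were 0.30, 0.85 and 0.60 with all libraries and 0.04, 0.07 and 0.13 without mutant C, and the groups overlapped for each. Iscu, for example, stood at 30.4, 35.1 and 37.2 CPM in wild type, 35.9 and 36.0 CPM in mutants D and Q and 113 CPM in mutant C.

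Over the whole set, 11 of the 32 genes had both mutants D and Q below every wild-type library (14.6% of all 12614 genes) and 3 had both above (14.3%). With mutant C included these counts were 4 (11.4%) and 3 (10.6%). An unadjusted p under 0.05 without mutant C was reached by 11 of the 32 (10.4% of all genes), 9 lower (6.02% of all genes) and 2 higher (4.34%). The median log2 change was -0.14 for the 32 genes and -0.01 for all genes without mutant C, and -0.01 and -0.02 with it. By limma-voom with sample weights, Steap3, Blvrb and Hmox1 of the 32 passed over 6 libraries, against 2.92% of all genes, and Steap3 and Blvrb without mutant C, against 1.32%.

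The values of mutant C varied with gene length. Relative to the mean of mutants D and Q (0.1 CPM added to each), all 11 genes with a mean length under 1500 bases were higher in mutant C, with a median log2 ratio of 1.48. All 8 genes of 3000 bases or more were lower, with a median of -0.54, and of the 13 genes between these lengths 10 were higher. Spearman's rho between this ratio and gene length was -0.85 over the 32 genes and -0.75 over 12222 genes, values of 1 set of libraries over genes that are not replicates. Mutant C was the highest or lowest library for 26 of the 32 genes. The length relation was weaker between mutants D and Q and wild type, with rho of -0.42 over the 32 genes and -0.27 over all genes. Wild type A against F and L had the opposite sign, with rho of 0.57 over the 32 genes and 0.25 over all genes. The part of length in the values of the 32 genes, Steap3, Tfrc and Slc11a2 included, was not tested.

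**Figure D3:**
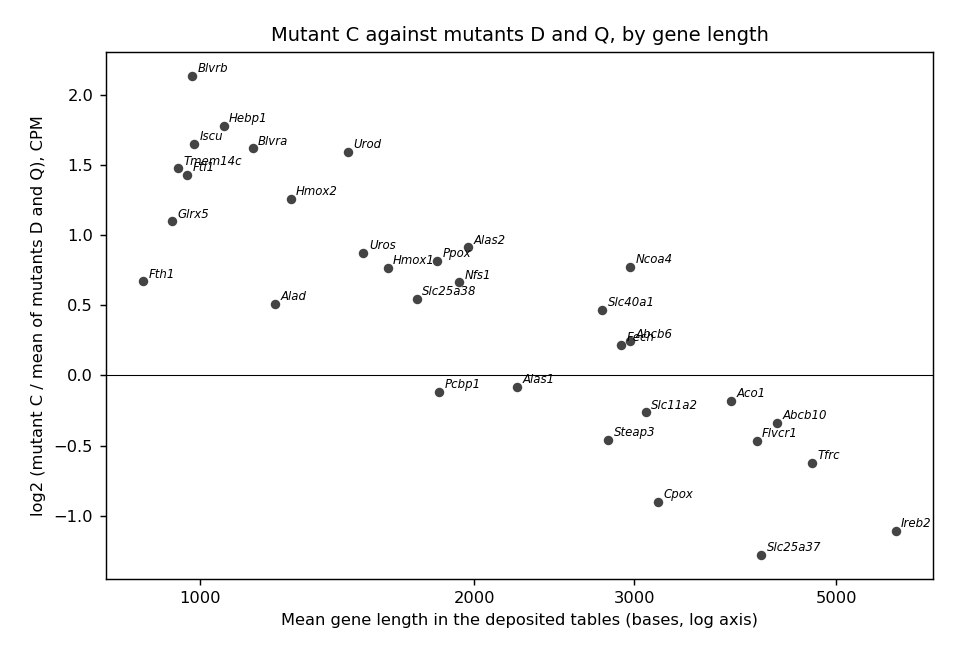
Mutant C relative to the mean of mutants D and Q for each gene (y axis, log2 of CPM) against mean gene length in bases (x axis, log scale). Points fall from Blvrb at 2.14 among the short genes to Slc25a37 at -1.28 among the long ones.

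Levels per length spanned a wide range in wild type. Ftl1 and Fth1 led with 1182 ± 41.1 and 821 ± 32.2 TPM (SD, n = 3), followed by Pcbp1 with 348 ± 38.5 TPM and Tmem14c with 251 ± 6.84 TPM. Among the synthesis enzymes the order was Urod (62.6 ± 0.430 TPM), Alas1 (55.2 ± 8.42), Alad (39.1 ± 3.15), Cpox (31.2 ± 5.19), Fech (20.6 ± 2.74), Uros (16.4 ± 1.40), Ppox (13.7 ± 3.66) and Alas2 (6.57 ± 2.53). The neighbours Urod and Alas1, and Uros and Ppox, differed by less than the larger SD of the pair. Tfrc (57.2 ± 12.7 TPM) stood above Steap3 (25.8 ± 4.22) and Slc11a2 (16.7 ± 2.50) in the uptake route. The low end was formed by Hmox1 (6.25 ± 0.889 TPM) and Slc40a1 (2.59 ± 0.362 TPM). The 8 enzymes summed to 225 to 273 TPM in wild type, 204 and 172 TPM in mutants D and Q and 114 TPM in mutant C. TPM was not level between the libraries. On log2(TPM + 1) the median change of all genes was -0.50 with all libraries and -0.12 without mutant C. The part of this shift in these sums, and in other TPM sums compared between libraries, was not tested.

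**Figure D4:**
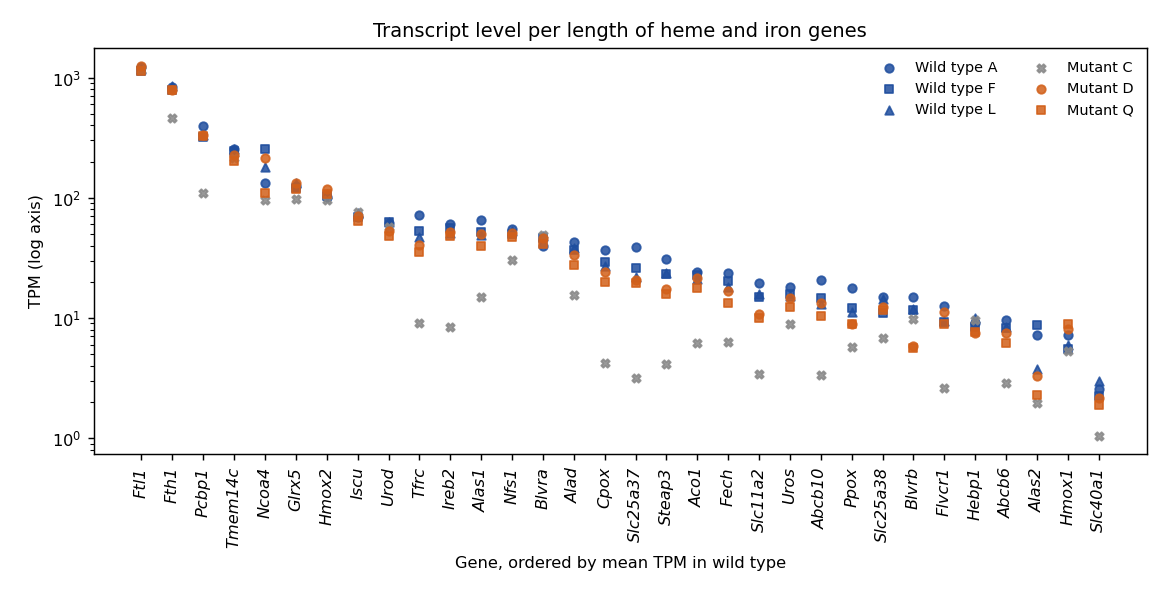
TPM of each gene (y axis, log scale) in each library, with genes ordered by their wild-type mean (x axis). Ferritin transcripts lead in every library. Mutant C lies below the other libraries for most genes, long ones such as Tfrc, Ireb2 and Slc25a37 and short ones such as Fth1, Glrx5 and Alad. It does not for Urod, Tmem14c, Hebp1, Ftl1, Blvra, Blvrb and Iscu.

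Erythroid markers were lower in mutants D and Q, and most of them also in mutant C. Of 19 markers, 3 fell and 0 rose by edgeR with all libraries (0.147% of all genes fell), and 12 had groups that did not overlap (11.4%). Without mutant C 10 fell and 0 rose (0.761% fell), and all 19 had D and Q below every wild-type library (14.6%). The direction of this list was known from earlier readings of these data. The 19 markers summed to 353 to 397 TPM in wild type and 108, 191 and 193 TPM in mutants C, D and Q. The most abundant were Nfe2, Car2 and Gfi1b, and Nfe2 and Car2 made up most of the wild-type sum. In CPM mutant C was the highest library for Nfe2 (115, against 99.8 to 107 in wild type) and Car2 (103, against 70.0 to 88.5 in wild type). For Gfi1b mutant C was the lowest, at 4.96 CPM. Mast cell markers, 9 genes of which Cma1, Tpsb2 and Mcpt4 had no count in any library, summed to 146 to 184 TPM in wild type and 8.18 to 12.2 TPM in the mutant. Cpa3, Hdc and Slc18a2 were the most abundant of them. The part of these cell types in the values of Steap3, Tfrc, Alas2 and Blvrb was not tested. Gata1, the erythroid regulator, stood at 29.6, 20.2 and 24.5 CPM in wild type, against 2.86, 0.813 and 1.18 CPM in mutants C, D and Q.

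Promoters were read for the sequences that GATA factors bind, AGATAA and TGATAA, and also AGATAG and TGATAG. RefSeq windows of 300 bases, from 250 before to 50 after a start site (GRCm38.p6), were given for 26 of the 32 genes, and Hmox1, Slc25a37, Iscu, Slc11a2, Fech and Slc40a1 had none. On either strand 8 of the 26 held a GATA match (Alas2, Blvrb, Cpox, Fth1, Hmox2, Ncoa4, Steap3 and Uros), 30.8% against 33.0% of 27025 genes. A CACCC-type match (CCACACCC or CCCCACCC), bound by KLF factors, was held by 6 (Abcb6, Alas1, Alas2, Ftl1, Steap3 and Tfrc), 23.1% against 14.7% of all genes. The NF-E2 motif was in 0 of the 26 (0.167% of all genes) and the NRF1 motif in 2, Abcb10 and Alas1 (1.07%). Alas2 and Steap3 held both a GATA and a CACCC-type match, and their upstream bases are shown with matches in capitals, trimmed where an annotated exon begins.
Alas2, chrX:150547167-150547374, plus strand: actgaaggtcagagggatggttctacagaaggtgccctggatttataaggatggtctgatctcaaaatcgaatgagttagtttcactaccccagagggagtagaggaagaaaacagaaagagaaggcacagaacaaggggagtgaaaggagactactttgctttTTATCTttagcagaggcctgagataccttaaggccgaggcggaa
Steap3, chr1:120271083-120271330, minus strand: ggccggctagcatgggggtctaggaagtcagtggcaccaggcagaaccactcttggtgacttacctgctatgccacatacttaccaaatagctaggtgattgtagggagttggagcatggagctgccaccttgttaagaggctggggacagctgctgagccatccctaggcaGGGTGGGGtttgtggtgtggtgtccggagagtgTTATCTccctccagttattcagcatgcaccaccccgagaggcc

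The GATA match of Alas2 lies 86 to 81 bases before the start site, and that of Steap3 45 to 40 bases before it, both as AGATAA on the opposite strand. Both start sites lie inside the annotated gene spans given above, not at their first base, and Steap3 has other start sites in the table. The second GATA match of Steap3 lies after the start. The CACCC-type matches of Alas2 lie nearer the start, in bases that the annotation counts as exon. The matches are a description of the windows only, and their part in the values was not tested.

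Other genes of heme and iron metabolism gave 0 calls by edgeR in both readings. Of a list of 61, 45 were tested with all libraries and 46 without mutant C. An unadjusted p under 0.05 was reached by 2 with all libraries (4.8% of all genes) and by 6 without mutant C (10.4% of all genes), 5 lower and 1 higher. The smallest p belonged to Tfr2, the transferrin receptor 2 gene, whose protein senses iron and binds the erythropoietin receptor. Tfr2 stood at 11.7, 6.87 and 7.81 CPM in wild type, against 3.30, 1.86 and 3.10 CPM in mutants C, D and Q. Its groups did not overlap. The log2 change was -1.69 (standard error 0.33) with all libraries and -1.82 (standard error 0.32) without mutant C, and neither passed by edgeR (adjusted p = 0.249 and 0.0618). DESeq2 called Tfr2 in both readings. The next were Hebp2, a relative of Hebp1, with a log2 change of 1.48 at a mean of 22 counts, and the ferredoxin genes Fdx1l and Fdx1, with 0.91 and 1.05. Without mutant C the ferredoxin changes were 0.23 and 0.20. The median log2 change of the tested genes of this list was 0.21 with all libraries and 0.05 without mutant C.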

How the data were processed

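Expected counts, TPM and FPKM per gene were deposited by the authors in 1 table per library, per the file headers. RSEM 1.2.18, Bowtie 1.1.1, CASAVA 1.8.2 and the build mm10 are listed in the submitters' processing notes. Annotation release and strandedness: not given in the sources used here. The deposited expected count is RSEM's estimate of reads per gene, and the deposited TPM is scaled per length to the same total. The deposited FPKM was not used in any result, and gene length in bases is the deposited length column. Names came from a table that paired 24448 of 24815 identifiers.

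Counts were rounded and fitted over all genes with edgeR 4.0.16 in R 4.3.3 (filterByExpr, minimum count 10, TMM scaling, quasi-likelihood F test, Benjamini-Hochberg adjustment, threshold 0.05), mutant against wild type. All 32 genes passed the filter in both fits. CPM values use the TMM factors of the 6 libraries. Each standard error was derived from the log2 change and its F statistic. Alternatives used DESeq2 1.42.0, limma 3.58.1, other scalings, no filter, log2(TPM + 1) and log2(TPM + 0.1), and leaving out each library. The replicate letters differ between the genotypes, so no samples were paired. Within a genotype, counts of any pair of libraries differed by a chi-square of at least 9.25 per gene, above counting noise, so each library was counted as 1 sample. The fits were tested on simulated data. Members and lists were chosen with earlier results of these data known. The rule for named genes took all 32 genes, Gata2 and Gata1, and the 4 other heme and iron genes of smallest p. It also took the most abundant 3 markers of a cell type list where its level is discussed. Markers of the sorting gate and mast cell markers without a count are named besides. Positions are those of GENCODE M21, and promoters those of RefSeq on GRCm38.p6.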

Additional observations from a re-analysis of the deposited data

How the results depend on the processing

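Of the 32 genes, 0 were called with all libraries under each scaling, filter and test tried, apart from limma-voom with sample weights, which called 3. Leaving out single libraries gave 0 to 1. All genes called numbered 19, and 36 without a filter, 124 by DESeq2, 32 by limma-voom, 357 with sample weights, 11 on log2(TPM + 0.1), and 0 to 106 with single libraries left out (106 without mutant C, 0 without any other). The other heme and iron genes had 1 call, Tfr2, by DESeq2 and with sample weights. On the 5 libraries without mutant C, alternatives chosen after seeing the data called 2 of the 32 genes without a filter, 3 by DESeq2, 0 by limma-voom and 2 with sample weights, against 1. All genes called there were 106, and 268, 243 and 166 without a filter, by DESeq2 and with sample weights. The other heme and iron genes had 1 call there without a filter, by DESeq2, with sample weights and on log2(TPM + 0.1). The TPM scale moved the median of all genes by -0.48 and -0.60 (pseudocounts 1 and 0.1), and by -0.11 and -0.13 without mutant C. Log2 changes on it are given relative to that shift. Calls and adjusted p-values on it come from the limma fits before that shift was taken off.

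These genes changed sign. With sample weights Uros, Urod, Tmem14c, Hebp1, Ncoa4, Blvrb and Flvcr1 had -0.15, -0.20, -0.12, -0.14, -0.49, -0.94 and 0.12. Blvrb was also -0.0401 under upper-quartile scaling, -0.0078 without a filter, -0.53 by limma-voom, and -0.31 and -0.27 on the TPM scales. Pcbp1 was -0.0065 under upper-quartile scaling and -0.12 on log2(TPM + 1), where Ncoa4 was -0.0037 and Slc40a1 0.0481. Without mutant C, Slc25a38 was -0.0187 and -0.0137 on the TPM scales. With single libraries left out, the log2 change ran for Alad from -0.24 to 0.0837, Uros from -0.12 to 0.42, Urod from -0.16 to 0.86, Ppox from -0.47 to 0.025, Tmem14c from -0.0985 to 0.84, Hebp1 from -0.14 to 1.02, Ncoa4 from -0.14 to 0.48, Pcbp1 from -0.0172 to 0.0589, Blvrb from -1.05 to 0.39 and Flvcr1 from -0.15 to 0.0907. The cause of these differences was not tested.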
